A study of Mus musculus with 4 samples.

Results

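The osteocalcin locus of mouse chromosome 3 was followed through single nuclei of the cerebral cortex. Its members were 6 genes matched by symbol, out of 32285 genes listed: the 3 osteocalcin genes Bglap, Bglap2 and Bglap3, and their neighbours Pmf1, Paqr6 and Smg5. The nuclei came from C57BL/6 mice aged 5 months, 2 animals with the genotype Setdb1-CK-cKO (called knockout here) and 2 animals with the genotype Wildtype, with 1 library for each animal. Setdb1 encodes a histone H3 lysine 9 methyltransferase. The labels name a conditional knockout but not the Cre driver, the deleted exons or the cells in which deletion took place, so the knockout cannot be assigned to a cell type from the labels. RNA was read with 10x Genomics 3' chemistry, in which each captured molecule is counted once by its unique molecular identifier (UMI). The locus was chosen by the measured rise of Bglap3 in knockout excitatory neurons, so all member values in that class are given as descriptions without a test.

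Osteocalcin is a small secreted protein of bone that carries vitamin K dependent gamma-carboxyglutamate residues. Mice have a cluster of copies: Bglap and Bglap2 are the osteoblast genes, and Bglap3, also called osteocalcin-related gene, is a near copy that is transcribed mainly outside bone. Gamma-glutamyl carboxylase modifies the protein, vitamin K epoxide reductase recycles the cofactor, and Gpr158 and Gprc6a have been proposed as receptors, Gpr158 in brain. Of the neighbours, Smg5 encodes a nonsense-mediated mRNA decay factor, Paqr6 a membrane progestin receptor, and Pmf1 a subunit of the MIS12 kinetochore complex.

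In the GENCODE annotation of the GRCm38 build (mm10) the members stood in the order Smg5, Paqr6, Bglap3, Bglap2, Bglap and Pmf1. Smg5 spanned chr3:88336260-88362338 and Paqr6 chr3:88364584-88368541, both on the plus strand. Bglap3 spanned chr3:88368616-88372743, Bglap2 chr3:88377736-88378699, Bglap chr3:88383501-88384464 and Pmf1 chr3:88394143-88410331, all on the minus strand. Paqr6 and Bglap3 converged, with 74 bases between their ends, and no member overlapped another annotated gene. Setdb1 lay on the same chromosome, 6.95 Mb beyond Bglap3. Bglap3 had 3 annotated coding transcripts, whose coding exons were the same (chr3:88368759-88369536). Of these, 2 began at an outer start at base 88372743 with added upstream exons, and 1 began at an inner start at base 88369831. Reads from the 3' end of a transcript do not tell these starts apart.

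Promoter sequence was available from RefSeq (GRCm38.p6) for 5 of the 6 members. The 250 bases before the outer Bglap3 start (chr3:88372742-88372991, minus strand) and before the Bglap start (chr3:88384467-88384716, minus strand) are shown because these copies share coding sequence but were counted at very different levels. Capitals mark CCAAT and TATATAA in the Bglap3 sequence, and ACCACA (the core bound by Runx factors), CCAAT and TATAAA in the Bglap sequence, as read on the printed strand. The last 2 bases of the Bglap3 stretch lie in its annotated first exon.
Bglap3 outer start: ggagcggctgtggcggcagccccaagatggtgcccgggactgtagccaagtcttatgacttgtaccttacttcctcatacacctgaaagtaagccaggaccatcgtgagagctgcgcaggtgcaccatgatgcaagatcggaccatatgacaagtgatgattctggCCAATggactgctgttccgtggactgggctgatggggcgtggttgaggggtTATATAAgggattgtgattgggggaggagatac
Bglap start: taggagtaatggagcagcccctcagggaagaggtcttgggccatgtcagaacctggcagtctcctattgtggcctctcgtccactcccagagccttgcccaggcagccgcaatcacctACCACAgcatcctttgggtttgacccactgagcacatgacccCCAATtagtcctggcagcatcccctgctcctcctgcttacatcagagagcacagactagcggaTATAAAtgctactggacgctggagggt
Searched on both strands, TATATAA was present in 3.04% of 32851 promoter stretches of 250 bases, TATAAA in 12.4%, ACCACA in 14.0% and CCAAT in 33.8%. The outer Bglap3 stretch held 8 CpG dinucleotides and 54.4% G and C, and the Bglap stretch held 4 CpG dinucleotides and 56.4% G and C. These matches describe the sequence and were not tested as binding sites.

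The RefSeq windows of the outer and inner Bglap3 starts lie 2910 bases apart, and sequence near these starts was itself duplicated. Over 200 aligned bases without a gap, 184 were identical. The copies do not sit alike: the aligned outer stretch ended before its start, and the inner one ran on past its start. A further RefSeq window of Bglap3, at chr3:88371480-88371729, was not aligned. The longest identical run was 50 bases, and among 32851 promoter windows it occurred in 2, both of Bglap3. A stretch of 150 bases is printed from each, with the 14 differing bases in capitals, from chr3:88372842-88372991 for the outer copy and chr3:88369832-88369981, within an intron of the longer transcripts, for the inner copy.
Outer copy: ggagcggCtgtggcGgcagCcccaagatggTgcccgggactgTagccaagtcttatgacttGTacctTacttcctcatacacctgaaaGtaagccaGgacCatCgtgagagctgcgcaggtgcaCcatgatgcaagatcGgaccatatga
Inner copy: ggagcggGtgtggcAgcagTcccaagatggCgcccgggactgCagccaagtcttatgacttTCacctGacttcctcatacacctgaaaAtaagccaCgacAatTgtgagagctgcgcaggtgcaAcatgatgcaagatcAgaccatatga

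After filtering, 52040 nuclei were kept, from 11176 and 13269 in the knockout libraries and 13883 and 13712 in the wildtype libraries, with library totals between 38314394 and 45605971 UMIs. Marker genes named 12 classes covering 48827 nuclei, each to be read as excitatory-neuron-like, microglia-like and so on, with the suffix left out, and 7 of these with at least 200 nuclei in every library were tested. Between 48 and 64 cell barcodes were shared by any pair of libraries. The sex labels of both knockout libraries went against their RNA. Knockout replicate 1, labelled female, had 81.8 CPM of Uty and 0.945 CPM of Xist (CPM, counts-per-million UMIs, here of the library and otherwise of the class and library), and knockout replicate 2, labelled male, had 0.0289 CPM of Uty and 1389 CPM of Xist, while both wildtype libraries matched their labels. Each genotype thus still held 1 library of each kind. By RNA, replicate 1 was the library with Uty and replicate 2 the library with Xist in both genotypes, so the replicate number coincided with sex, for which the fits had no term. Setdb1 RNA in excitatory neurons was 72.0 and 67.6 CPM in the knockout libraries, against 71.4 and 67.2 in the wildtype libraries, with a log2 fold change of -0.02 ± 0.08 (SE; adjusted p = 0.920, edgeR). A 3' tag outside the deleted part does not check a deletion, and the deleted part is not given in the sources used here.

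Bglap3 was the osteocalcin gene that was counted in cortex, and it was counted almost wholly in the knockout. Over all named classes there were 1738 and 1805 Bglap3 UMIs in the knockout libraries, against 55 and 72 in the wildtype libraries. Bglap gave 4 and 0 UMIs in the knockout libraries, against 3 and 1 in the wildtype libraries. Bglap2 gave 2 and 0 UMIs in the knockout libraries, against 1 and 1 in the wildtype libraries. No difference in Bglap or Bglap2 was detectable at this depth, and neither passed the low-count filter in any tested class.

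Shared sequence limits what can be said of Bglap and Bglap2. Of the stretches of 50 bases in their annotated transcripts, 56.6% in Bglap, 88.2% in Bglap2 and 11.5% in Bglap3 also occurred in a transcript of another gene, which for Bglap and Bglap2 were the other osteocalcin copies. In the last 300 bases of the longest transcript, where 3' reads fall, 201 of 251 such stretches in Bglap and 211 of 251 in Bglap2 were shared, against 58 of 251 in Bglap3. A read within a shared stretch cannot be given to 1 gene, so the low counts of Bglap and Bglap2 are uncertain in a way that those of Bglap3 are less.

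In excitatory neurons, the largest class, Bglap3 had 1416 and 1446 UMIs in the knockout libraries, against 48 and 60 UMIs in the wildtype libraries. In CPM this was 56.0 and 57.3 in the knockout, against 1.60 and 2.09 in the wildtype. Both knockout libraries stood far above both wildtype libraries and close to each other. The summed knockout level was 30.8 times the wildtype level (95% counting interval 25.4 to 37.7), and the fitted log2 fold change was 4.91 ± 0.15 (SE, n = 2 animals for each genotype). In this class 2.98% of 19145 tested genes rose, by the same fit and a threshold of 0.05 on the adjusted p. Because the class chose the members, nothing is read from Bglap3 being among them.

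Within excitatory neurons, Bglap3 was not spread evenly. Cluster 22, a small group led by 9330185C12Rik, Pecam1, Gm49906 and Ccdc60 that the fixed markers gave no layer name, had 352 and 375 CPM in the knockout libraries, against 18.8 and 43.6 in the wildtype libraries. It was the highest of the 12 excitatory subclasses and clusters in both genotypes, and in each genotype both of its libraries stood above both libraries of every other group. In the knockout it held 1.90% and 1.04% of excitatory nuclei but 12.9% and 7.26% of the excitatory Bglap3 UMIs. In the wildtype it held 1.43% and 1.25% of the nuclei and 18.8% and 26.7% of the UMIs.

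A middle group followed. Layer 4/5 intratelencephalic (IT) neurons had 105 and 123 CPM in the knockout libraries, against 3.55 and 4.17 in the wildtype libraries. Layer 5 IT neurons had 101 and 85.8 in the knockout, against 1.86 and 2.88 in the wildtype. Layer 6b neurons had 87.7 and 116 in the knockout, against 1.27 and 0 in the wildtype. These 3, layer 5/6 near-projecting neurons (90.4 and 82.0 in the knockout, against 1.73 and 0 in the wildtype) and cluster 16, led by Tshz2 and Adcy10 (85.5 and 72.7 in the knockout, against 9.58 and 5.77 in the wildtype), each overlapped its neighbour among these 5 in the order of knockout levels, although layer 4/5 IT neurons stood above layer 5 IT neurons in both libraries.

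The remaining groups were lower, and both knockout libraries of cluster 16 stood above both of cluster 13, the next. Cluster 13, led by Ndst4 and Abi3bp, layer 5 extratelencephalic and layer 6 corticothalamic neurons averaged 39.5, 35.7 and 34.8 CPM in the knockout, against 0.450, 0.485 and 0.486 in the wildtype. Layer 6 IT, layer 2/3 IT and claustrum or layer 6 Car3 neurons averaged 28.4, 27.1 and 22.2 in the knockout, against 0.242, 0.745 and 0.777 in the wildtype. Layer 2/3 IT neurons, the most numerous group, had 24.0 and 30.2 CPM in the knockout libraries, which overlapped the 18.5 and 24.9 of inhibitory neurons. Both lay below the knockout levels of oligodendrocytes (51.3 and 65.8) and microglia (49.9 and 63.3), described further on. RNA released by other nuclei (free RNA) can be counted in any nucleus. Its part in the levels, ratios and shares of the excitatory groups was not tested.

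The summed knockout level was 12.2 times the wildtype level in cluster 22 (95% counting interval 8.08 to 19.1) and 10.1 times in cluster 16 (5.88 to 18.6). It was 29.8 times the wildtype level in layer 4/5 IT neurons (19.8 to 46.9), 36.1 times in layer 2/3 IT neurons (20.5 to 70.4) and 39.3 times in layer 5 IT neurons (25.3 to 64.8). The groups with the highest wildtype levels, clusters 22 and 16, had the lowest ratios. The wildtype level is the divisor of the ratio, so nothing further is read from this. In the other 7 groups the wildtype libraries held 1 to 4 UMIs, and the intervals were too wide to order them. Over the 12 groups the knockout and wildtype levels, as log2 of CPM plus 1, had a Pearson r of 0.82 and a Spearman rho of 0.59, given as a description because the groups share libraries. These intervals cover counting error only.

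**Figure D1:**
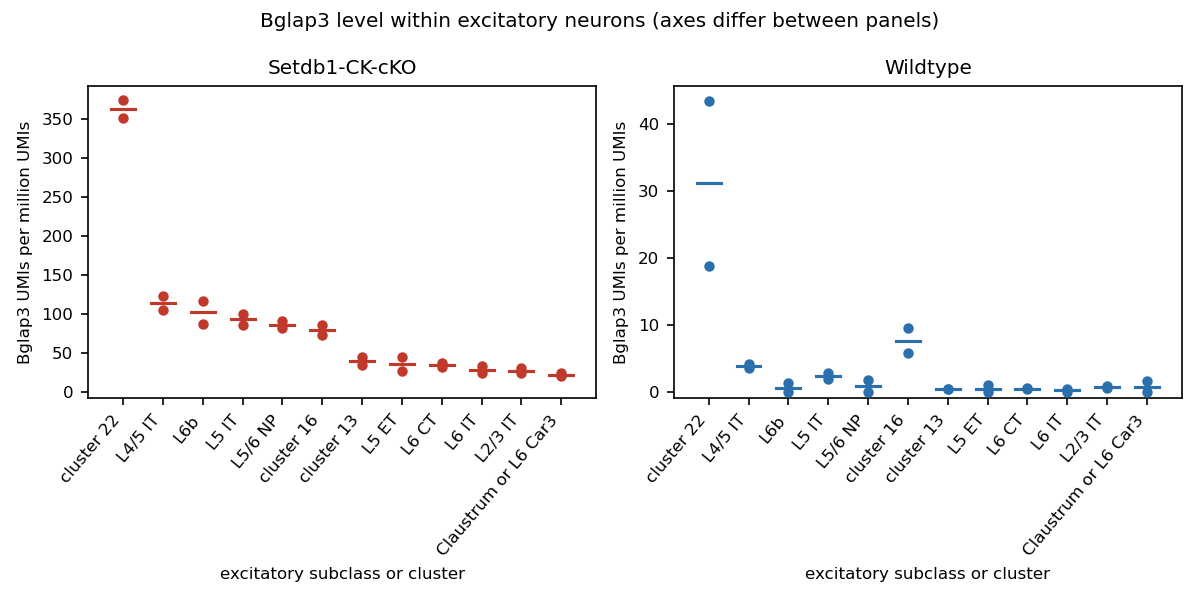
Bglap3 CPM (vertical axes, which differ in scale) in the 12 excitatory subclasses and clusters, in Setdb1-CK-cKO (left) and Wildtype (right); points are the 2 libraries of a genotype and lines their means. Cluster 22 stood highest in both, at a mean of 363 in the knockout and 31.2 in the wildtype.

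The share of nuclei with at least 1 Bglap3 UMI gave the same picture at the level of single nuclei. Among excitatory neurons it was 902 of 5798 nuclei (15.6%, exact 95% interval 14.6 to 16.5) and 1076 of 7219 nuclei (14.9%, 14.1 to 15.7) in the knockout libraries. In the wildtype libraries it was 42 of 6804 nuclei (0.617%, 0.445 to 0.833) and 56 of 7285 nuclei (0.769%, 0.581 to 0.997). In cluster 22 the share was 66.4% and 68.0% of 110 and 75 knockout nuclei, against 8.25% and 14.3% of 97 and 91 wildtype nuclei. The highest count in 1 nucleus was 25 UMIs, in a cluster 22 nucleus of knockout replicate 1, and no wildtype nucleus of this class had more than 3. In layer 4/5 IT neurons the share was 24.3% and 24.1% in the knockout, against 0.917% and 1.33% in the wildtype, and in layer 2/3 IT neurons it was 7.99% and 9.85% in the knockout, against 0.256% and 0.391% in the wildtype.

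Depth set much of these shares. The median excitatory nucleus held 3954 and 3160 UMIs in the knockout libraries, against 4056 and 3590 in the wildtype libraries, whereas the median microglial nucleus held 882 and 759 in the knockout, against 858 and 822 in the wildtype. When each nucleus was thinned to 1000 UMIs, leaving out 16 and 33 shallower knockout nuclei and 40 and 24 shallower wildtype nuclei, the excitatory share was 4.89% and 5.79% in the knockout, against 0.192% and 0.303% in the wildtype. The thinned cluster 22 share was 25.5% and 29.3% in the knockout, against 1.03% and 6.59% in the wildtype.

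Outside excitatory neurons Bglap3 was counted in every named class of the knockout. Oligodendrocytes had 51.3 and 65.8 CPM in the knockout libraries, against 1.01 and 3.12 in the wildtype libraries. Microglia had 49.9 and 63.3 in the knockout, against 0 and 2.01 in the wildtype. Astrocytes had 37.7 and 52.3 in the knockout, against 1.17 and 1.93 in the wildtype. Astrocytes fell into clusters 5 and 19, and cluster 19 held 200 of 668 and 368 of 846 knockout astrocytes, against 19 of 1047 and 34 of 1022 wildtype astrocytes. The part of this difference in makeup in the astrocyte values was not tested. In the knockout, oligodendrocytes and microglia overlapped excitatory neurons, and both astrocyte libraries lay below them. Oligodendrocyte precursors had 29.8 and 35.1 in the knockout, against 0 and 1.63 in the wildtype. Inhibitory neurons had the lowest mean, with 18.5 and 24.9 in the knockout, against 0.731 and 0.235 in the wildtype. Inhibitory neurons marked by Meis2 and Pbx3 had 40.7 and 22.2 in the knockout and no Bglap3 UMI in either wildtype library. In each of these classes both knockout libraries stood above both wildtype libraries. Over all tested genes that held for 30% in excitatory neurons, 25.2% in inhibitory neurons, 21.4% in astrocytes, 21.3% in the Meis2 and Pbx3 class, 20.9% in microglia, 19.9% in oligodendrocytes and 18.3% in oligodendrocyte precursors.

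**Figure D2:**
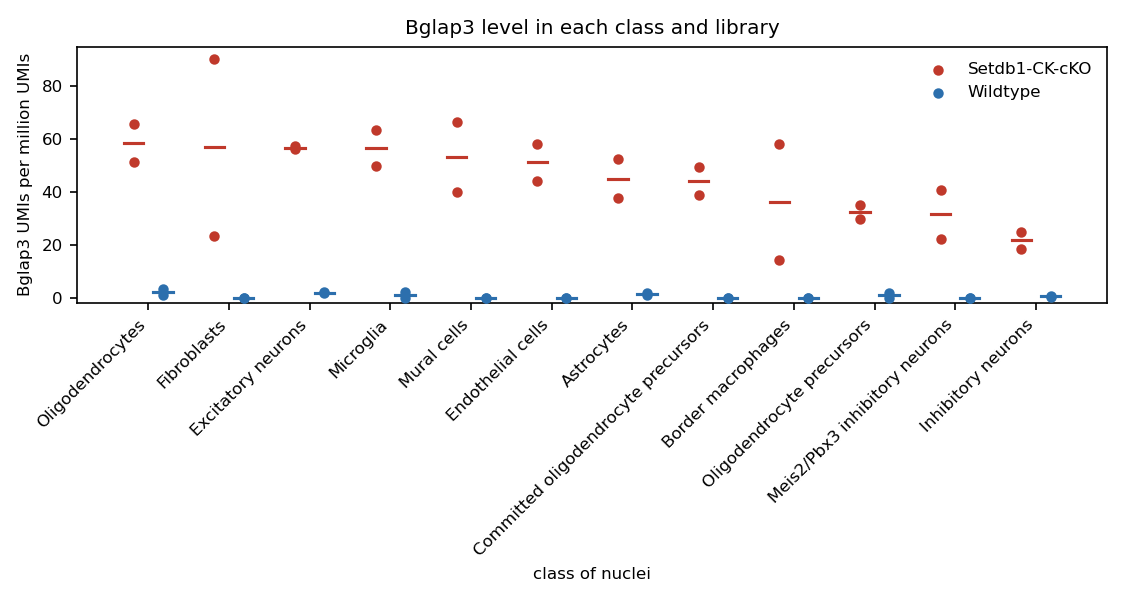
Bglap3 CPM of the class (vertical axis) in 12 classes of nuclei ordered by the knockout mean; points are libraries, lines are means, Setdb1-CK-cKO left of Wildtype. Knockout means ran between 21.7 in inhibitory neurons and 58.5 in oligodendrocytes, and neighbouring classes overlapped.

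The same fit was run in the 6 classes outside excitatory neurons (edgeR quasi-likelihood test, Benjamini-Hochberg adjustment over all genes of the class). Bglap3 was chosen on the same libraries, and with at most 6 UMIs in a wildtype library of these classes it passed the count filter through the knockout alone, so its p-values there are not independent support and no count of classes is read from them. The log2 fold change was 5.40 ± 0.43 (SE) in inhibitory neurons (adjusted p = 2.1e-06), where 0.969% of 14453 tested genes rose. It was 4.79 ± 0.36 in oligodendrocytes (adjusted p = 2.3e-06), where 0.374% of 12301 genes rose, and 4.80 ± 0.43 in astrocytes (adjusted p = 5.9e-04), where 0.238% of 12175 genes rose. With only 1 wildtype UMI each, microglia (adjusted p = 4.35e-04) and oligodendrocyte precursors (adjusted p = 0.025) also passed, where 0.123% of 8976 and 0.0219% of 9135 genes rose. For these the ratio of summed levels was 56.8 in microglia (95% counting interval 9.81 to 2283) and 40.0 in oligodendrocyte precursors (6.74 to 1621).

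These 2 classes kept the direction but not the call when libraries were left out. The log2 fold change then ran between 4.67 and 7.85 in microglia and between 4.15 and 7.25 in oligodendrocyte precursors. Microglia lost significance without either knockout library or without wildtype replicate 2 (edgeR adjusted p = 0.670, 0.756 and 0.053), and oligodendrocyte precursors without either knockout library or without wildtype replicate 1 (edgeR adjusted p = 0.781, 0.905 and 0.718). In the Meis2 and Pbx3 class, where 0% of 11330 tested genes rose, the adjusted p was 0.340 in edgeR (unadjusted p = 1.5e-04). The summed knockout level of Bglap3 there was 21.9 times the level of 3 UMIs over the wildtype group, taken as the floor. This ratio leaves out the counting error of the knockout UMIs.

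The smaller classes were not tested. Endothelial cells had 3 and 5 Bglap3 UMIs in the knockout libraries, mural cells 2 and 6, fibroblasts 2 and 10, border macrophages 1 and 5, and committed oligodendrocyte precursors 4 and 6, against 0 in both wildtype libraries for each of these classes. Against the floor of 3 wildtype UMIs over the group, the summed knockout level was 6.22 times the floor in fibroblasts and 1.42 times in border macrophages. These ratios leave out the counting error of the few knockout UMIs, so they are not lower bounds.

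Markers of excitatory neurons were counted outside excitatory neurons at levels like those of Bglap3. The 10 excitatory marker genes were summed in each class and set against excitatory neurons of the same library. In the knockout they reached 98.9% and 108% of the excitatory level in microglia, 85.0% and 99.1% in oligodendrocytes, 61.8% and 76.0% in astrocytes, and 45.4% and 52.0% in inhibitory neurons. None of the 10 was at 0 in any library of the 7 tested classes. Bglap3 reached 89.0% and 111% of its excitatory level in knockout microglia, 91.5% and 115% in oligodendrocytes, 67.3% and 91.2% in astrocytes, and 33.0% and 43.5% in inhibitory neurons. In oligodendrocyte precursors Bglap3 reached 53.1% and 61.2%, beside 60.9% and 72.4% for the markers, and in the Meis2 and Pbx3 class 72.7% and 38.8%, beside 65.7% and 69.9%. Microglia and oligodendrocytes were highest for both, and the lowest class for Bglap3 was inhibitory neurons in knockout replicate 1 and the Meis2 and Pbx3 class in replicate 2.

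Single markers differed. Slc17a7, a vesicular glutamate transporter, was at 126% and 139% of its excitatory level in knockout microglia, and Camk2a at 28.7% and 35.0%. Camk2a was at 42.9% and 49.2% in knockout inhibitory neurons and at 62.8% and 69.6% in the Meis2 and Pbx3 class. Whether other classes made part of the marker RNA themselves was not tested. Wildtype libraries had the same background, with the 10 markers between 40.5% and 98.5% of the excitatory level over the 6 other tested classes, against 45.4% to 108% in the knockout. Bglap3 RNA made in these classes cannot be told apart from free RNA at this background, and no expression outside excitatory neurons is read from these values.

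**Figure D3:**
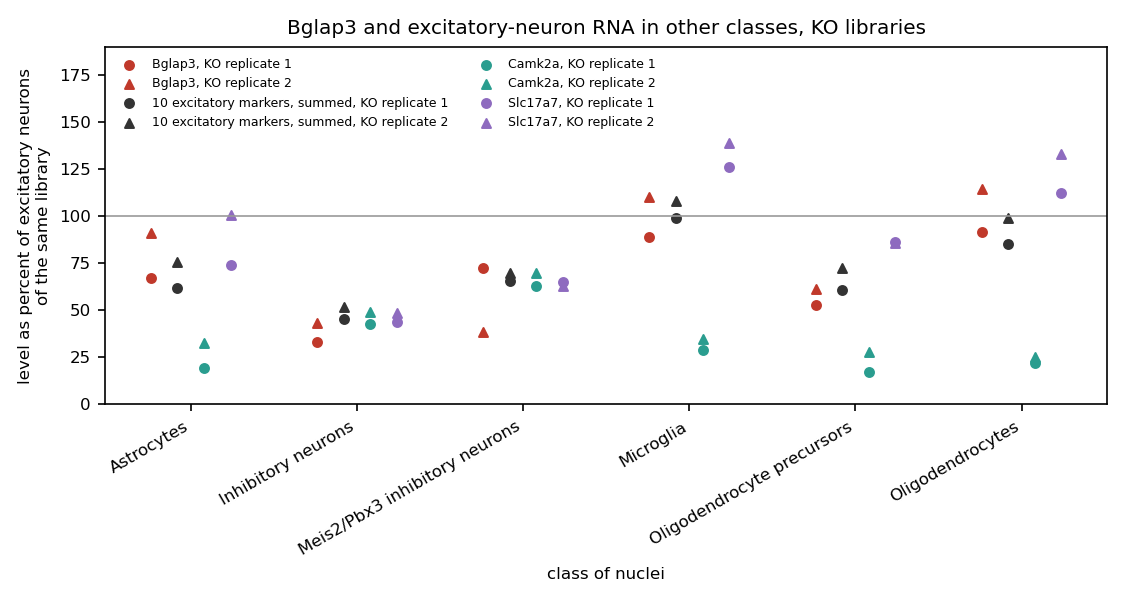
Level of Bglap3, of 10 summed excitatory markers, of Camk2a and of Slc17a7 in 6 other tested classes, as a percent of the level in excitatory neurons of the same knockout library (vertical axis); circles and triangles are knockout replicates 1 and 2, and the line marks 100%. Bglap3 stood within 33.0% to 115%, and the summed markers within 45.4% to 108%.

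The shares of nuclei with Bglap3 outside excitatory neurons are read against the same background. Unthinned, they were 6.25% and 7.05% in knockout inhibitory neurons, against 0.268% and 0.0773% in the wildtype, and 5.84% and 6.62% in knockout astrocytes, against 0.191% and 0.294% in the wildtype. In oligodendrocytes they were 5.31% and 5.63% in the knockout, against 0.105% and 0.310% in the wildtype, and in microglia 4.60% and 4.95% in the knockout, against 0 of 552 nuclei and 0.172% in the wildtype. The 0 of 552 allows a share of nuclei with a UMI of up to 0.543% by a limit of 3 counts, or 0.666% by the exact interval, and does not bound the share that transcribes the gene. Thinned to 1000 UMIs, shares over the 4 tested glial classes ran between 1.82% and 5.12% in the knockout, against 0% to 0.345% in the wildtype. That knockout range reached the lower of the thinned excitatory shares of 4.89% and 5.79%. Committed oligodendrocyte precursors, which were not tested, had thinned shares of 5% and 7.41% of 40 and 54 knockout nuclei, against 0 of 51 and 0 of 48 wildtype nuclei. In inhibitory neurons the thinned share was 1.81% and 2.81% in the knockout, against 0% and 0.0778% in the wildtype. Thinning left 165 and 109 of the 522 and 647 knockout microglia and 167 and 141 of the 552 and 580 wildtype microglia.

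The size of the genotype effect was compared between inhibitory neurons and each other tested class outside excitatory neurons, with library as a term. The difference in log2 fold change, inhibitory neurons minus the other class, was 0.52 ± 0.82 (SE) for astrocytes and 0.55 ± 0.77 for oligodendrocytes. Neither passed the threshold (edgeR adjusted p = 0.995 and 0.938). The differences from microglia, oligodendrocyte precursors and the Meis2 and Pbx3 class rested on 0 or 1 wildtype UMI in the other class and did not pass either (edgeR adjusted p = 0.993, 0.999 and 1). A p that misses the threshold does not show that the classes responded alike. Bglap3 in these classes was chosen on the same libraries and cannot be told apart from free RNA. The differences are therefore descriptions and are not read as responses of the classes.

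No neighbouring member passed where it was tested. Smg5, next to Paqr6 and the best counted of the members, had 98.6 and 103 CPM in knockout excitatory neurons, against 99.1 and 92.9 in the wildtype, and the genotypes overlapped. Its log2 fold change there was 0.04 ± 0.08 (SE). Among the 12 excitatory groups the knockout stood above the wildtype without overlap in 5. These were layer 5 IT, layer 5/6 near-projecting, layer 6 corticothalamic, layer 6b and claustrum or layer 6 Car3 neurons. The share of all genes that did so was not computed for these groups, and it was 30% in excitatory neurons as a class. The ratio of summed levels was 1.16 in layer 5 IT neurons (95% counting interval 1.05 to 1.28), 1.11 in layer 6 corticothalamic neurons (1.01 to 1.22) and 1.30 in claustrum or layer 6 Car3 neurons (1.02 to 1.68). It was 1.27 in layer 5/6 near-projecting neurons (0.951 to 1.70) and 1.09 in layer 6b neurons (0.848 to 1.39), where the intervals include 1. These are descriptions, and no rise of Smg5 in these groups is read from them. In the 6 other classes its log2 fold change lay between -0.28 and 0.40, and none passed the test (edgeR adjusted p between 0.542 and 1). In astrocytes Smg5 had 83.0 and 82.1 CPM in the knockout, against 83.3 and 83.8 in the wildtype. In microglia, where the genotypes did not overlap, it had 83.1 and 110 in the knockout, against 71.8 and 74.5 in the wildtype (log2 fold change 0.40 ± 0.24 (SE), edgeR adjusted p = 0.542). Oligodendrocytes did not overlap either, with 78.3 and 85.5 in the knockout, against 75.7 and 70.2 in the wildtype (0.18 ± 0.15 (SE), edgeR adjusted p = 0.670). Its highest tested class was the Meis2 and Pbx3 class, with 104 and 125 in the knockout, against 108 and 120 in the wildtype.

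Paqr6, whose end lies 74 bases from that of Bglap3, was low in neurons and highest among the tested classes in astrocytes. In excitatory neurons it had 0.792 and 0.634 CPM in the knockout, against 0.499 and 0.732 in the wildtype, with a log2 fold change of 0.19 ± 0.36 (SE). In astrocytes it had 12.3 and 16.9 CPM in the knockout (13 and 21 UMIs), against 8.16 and 6.45 in the wildtype (14 and 10 UMIs). The difference in cluster 19 makeup applies to these values too. The genotypes did not overlap there, as for 21.4% of astrocyte genes in that direction, and the log2 fold change of 0.98 ± 0.39 did not pass (edgeR adjusted p = 0.477). In oligodendrocytes it had 4.05 and 4.93 in the knockout, against 2.02 and 5.20 in the wildtype, and it did not pass the count filter.

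Pmf1, at the other end of the locus, was low throughout. Excitatory neurons had 2.02 and 1.90 CPM in the knockout, against 2.03 and 2.09 in the wildtype, with a log2 fold change of -0.10 ± 0.21 (SE). Inhibitory neurons had 1.12 and 2.03 in the knockout (4 and 8 UMIs), against 3.17 and 3.52 in the wildtype (13 and 15 UMIs). The genotypes did not overlap there, as for 19% of inhibitory-neuron genes in that direction, and the log2 fold change of -1.07 ± 0.49 did not pass (edgeR adjusted p = 0.365). Counting members in every tested class, 4 of 6 passed the count filter in excitatory neurons, 3 in inhibitory neurons and in astrocytes, and 2 in each of the other 4 classes, and no member fell in the 6 classes tested. The share of all genes that fell was 0.504% in oligodendrocytes, 0.325% in inhibitory neurons, 0.078% in microglia, 0.0246% in astrocytes and 0% in the other 2 classes, beside 1.3% in excitatory neurons.

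**Figure D4:**
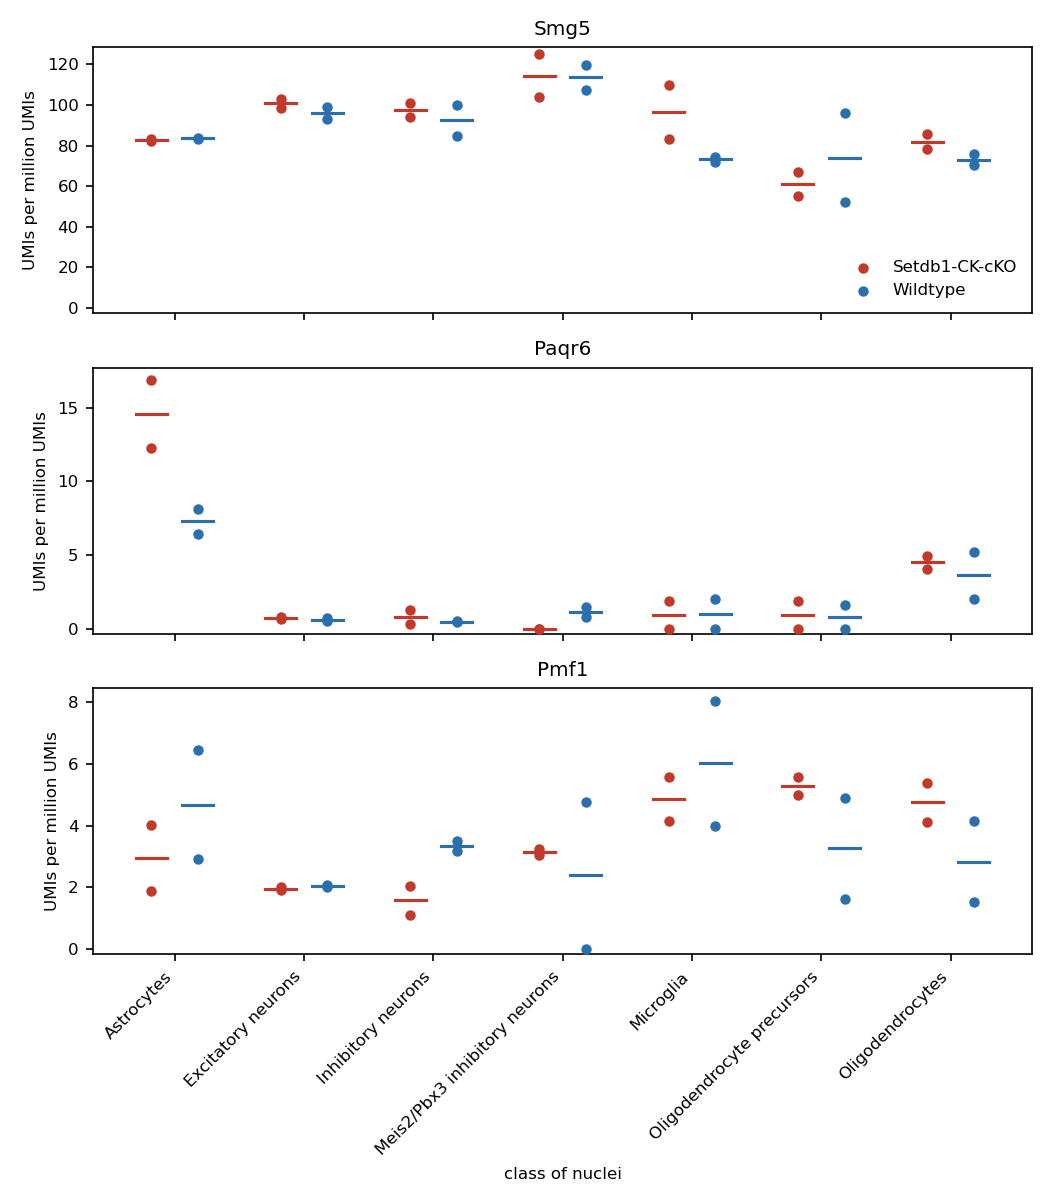
CPM of the class (vertical axes) for Smg5, Paqr6 and Pmf1 in the 7 tested classes; points are libraries, lines are means, Setdb1-CK-cKO left of Wildtype. Smg5 had a mean of 101 in knockout and 96.0 in wildtype excitatory neurons, and Paqr6 reached a mean of 14.6 in knockout astrocytes, against 7.30 in wildtype astrocytes.

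Detection of the neighbours was set beside detection of Bglap3 in the same nuclei. Among knockout excitatory nuclei with Bglap3, 35.6% and 30.7% also had Smg5, against 32.6% and 29.0% of nuclei without Bglap3, and nuclei with Bglap3 were slightly deeper (medians of 4075 and 3281 UMIs, against 3927 and 3135 without). For Paqr6 the shares were 0.333% and 0.186% with Bglap3, against 0.347% and 0.228% without. For Pmf1 they were 1.11% and 0.651% with Bglap3, against 0.817% and 0.667% without.

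The wider neighbourhood was searched within 250 kb of Bglap3 on either side. Besides the members, 22 listed genes fell in this window, of which 19 were tested in excitatory neurons and 14 in inhibitory neurons. None was called in any of the 7 classes by edgeR, where 4.28% of excitatory and 1.29% of inhibitory genes were called in either direction, with 0.878% in oligodendrocytes, 0.263% in astrocytes, 0.201% in microglia, 0.0219% in oligodendrocyte precursors and 0% in the Meis2 and Pbx3 class. DESeq2 also called none. In excitatory neurons 2 of the 19 had an unadjusted p under 0.05 (20.7% of all genes) and 1 of the 14 did in inhibitory neurons (13.2%). In the Meis2 and Pbx3 class 0 of 12 did (3.71%), and 2 did of 15 in astrocytes (9.31%), of 14 in oligodendrocytes (13.9%), of 11 in microglia (11.9%) and of 9 in oligodendrocyte precursors (7.01%). The median log2 fold change of the 19 genes was -0.02, beside 0.00 over all tested genes, with a range of -0.75 to 0.46. The nearest genes outside the members were Tmem79, with 1.58 and 2.14 CPM in knockout excitatory neurons, against 2.03 and 1.67 in the wildtype, and Slc25a44, a mitochondrial branched-chain amino acid carrier, with 26.0 and 27.0 in the knockout, against 25.0 and 31.9 in the wildtype.

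At the upper end of the range, Lamtor2, a Ragulator subunit whose start lies 180 kb from that of Bglap3, had 23.6 and 26.3 CPM in knockout excitatory neurons, against 16.4 and 19.3 in the wildtype. Its log2 fold change was 0.46 ± 0.12 (SE; edgeR adjusted p = 0.077). At the lower end, Gm37584 had 0.792 and 0.753 in the knockout, against 1.40 and 1.15 in the wildtype (log2 fold change -0.75 ± 0.29, edgeR adjusted p = 0.187). Lamtor2 and Gm37584 are named here after their values were seen.

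**Figure D5:**
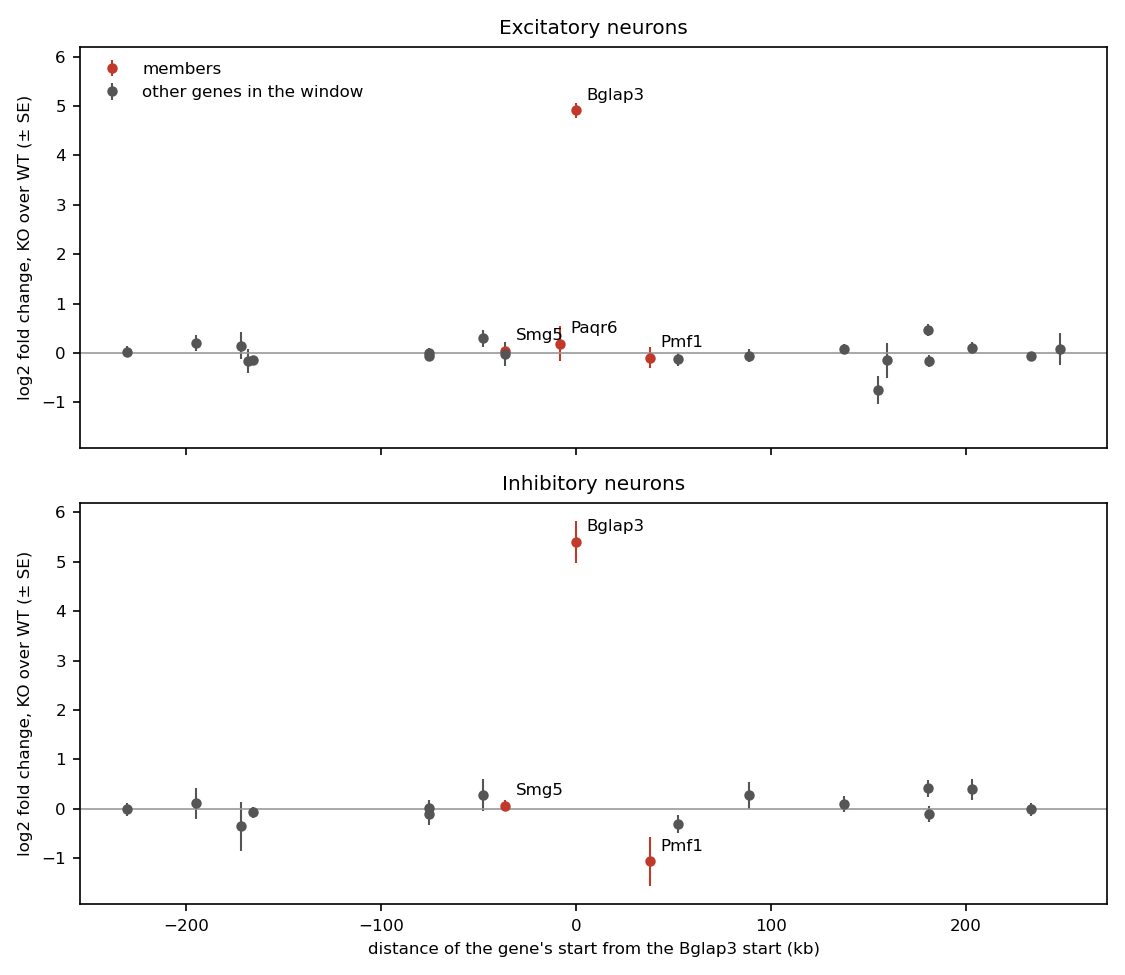
Log2 fold change of Setdb1-CK-cKO over Wildtype with its SE (vertical axis) for every tested gene within 250 kb, by distance of its start from the Bglap3 start in kb (horizontal axis), in excitatory (top) and inhibitory neurons (bottom). Bglap3 stood at 4.91 and 5.40, and no other gene was above 0.46.

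Genes that modify or are proposed to sense osteocalcin gave no call in excitatory neurons. Of 9 carboxylation and processing genes, all 9 were tested in excitatory neurons and none passed (median log2 fold change -0.03, beside 0.00 over all genes). Ggcx, the gamma-glutamyl carboxylase, had 11.7 and 10.9 CPM in the knockout, against 11.4 and 11.9 in the wildtype, and Vkorc1, the vitamin K epoxide reductase, had 4.47 and 5.55 in the knockout, against 3.29 and 4.29 in the wildtype. Of 5 proposed receptors 4 were tested and none passed. Gpr158 had 509 and 494 CPM in the knockout, against 566 and 547 in the wildtype (log2 fold change -0.18 ± 0.07 (SE), edgeR adjusted p = 0.180). Of 14 other vitamin K dependent proteins 9 were tested and none passed (median 0.06).

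Markers of bone-forming cells gave no call either. Of 20 osteoblast genes 9 were tested in excitatory neurons and none passed (median -0.15). Sp7, which specifies osteoblasts, had 0.119 and 0.159 CPM in the knockout, against 0.133 and 0.0349 in the wildtype, and Col1a1 had 0.396 and 0.198 in the knockout, against 0.200 and 0.244 in the wildtype. Runx2, which cortical neurons also transcribe, had 173 and 169 in the knockout, against 187 and 186 in the wildtype (edgeR adjusted p = 0.259).

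The families of the neighbours gave 1 call. In excitatory neurons none of 12 tested PAQR family and partner genes (median -0.02), none of 18 nonsense-mediated decay genes (median -0.06) and none of 12 polyamine genes (median 0.00) passed. Of 9 kinetochore genes 7 were tested, and 1 rose and none fell, beside 2.98% and 1.3% of all genes in this class. That gene was Knl1, the kinetochore scaffold, with 3.56 and 3.37 CPM in the knockout, against 1.70 and 1.67 in the wildtype. Its log2 fold change was 1.01 ± 0.20 (SE; edgeR adjusted p = 0.028), and it did not pass without wildtype replicate 1, without wildtype replicate 2, without the count filter or in DESeq2. The median of the 7 was 0.32. In the other 6 classes no gene of the 8 lists passed the edgeR test.

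The genes whose levels followed Bglap3 most closely were sought over 28 points, 7 classes in 4 libraries, among 19141 genes. By Pearson r of log2 of CPM plus 1 they were Tcfl5 (0.94), 2310067P03Rik (0.94), Gm13016 (0.93), Gm11884 (0.91) and She (0.89). Points share libraries and the same free RNA, so these are descriptions. All 5 were low in the wildtype: 2310067P03Rik averaged 91.9 CPM in knockout excitatory neurons, against 2.24 in the wildtype, Tcfl5, a basic helix-loop-helix factor of the male germline, averaged 14.8 in the knockout, against 0.457 in the wildtype, and Gm11884 averaged 153 in the knockout, against 0.631 in the wildtype. She lies on chromosome 3, at chr3:89831370-89858834, and the other 4 lie on chromosomes 2, 13 and 4.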

How the data were processed

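The deposited files hold UMI counts for each gene and barcode of 4 libraries. Per the submitters' processing notes the authors used Cell Ranger 7.1.0 and the mm10 build; whether intronic reads were counted is not given in the sources used here. Nuclei with at least 500 UMIs, at least 300 genes and at most 5% mitochondrial counts were kept, and Scrublet doublets were removed. Clustering used scanpy 1.11.5 (2000 variable genes, none of them a member, 30 components, 15 neighbours, Leiden resolution 1, seed 1), and clusters were named from marker lists. Counts were summed by library and class. edgeR 4.0.16 (filterByExpr with a minimum count of 10, TMM, quasi-likelihood test, genotype as the only term) was fitted to all genes of each class with Benjamini-Hochberg adjustment, tested on simulated counts. An SE was obtained by dividing the size of each log2 fold change by the root of its F statistic. DESeq2 1.42.0 was an alternative. Levels are CPM (counts-per-million UMIs of the class and library), without TMM. Intervals are 95% exact (Clopper-Pearson), and for ratios they are conditional binomial; they cover counting error only. Nuclei were thinned by hypergeometric draws. Coordinates come from the GENCODE vM21 annotation, in which 99.6% of listed gene identifiers were found.

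The members and lists were chosen with earlier results of these data known. Genes named are the members, neighbours within 250 kb that pass and the nearest gene on either side, list genes that pass (up to 4 for each list), the 5 genes most like Bglap3 and Setdb1; others were named for their roles or, where said, for their values.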

Additional observations from a re-analysis of the deposited data

Results flagged for a closer look

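Pooled, the 6 clusters that received no class name, left out of the comparisons, also held Bglap3 above the wildtype level. By itself cluster 31 gave 0 and 1 Bglap3 UMIs in the knockout libraries, and cluster 32 held no wildtype nuclei. The shares that follow are of the pooled nuclei. At least 1 Bglap3 UMI was found in 9.11% of 428 and 11.4% of 839 knockout nuclei, against 0.153% of 1307 and 0.626% of 639 wildtype nuclei. Most of these nuclei belonged to cluster 8, led by H2afj, Ttc9b and Mt3, which had 59.8 and 121 CPM of Bglap3 in the knockout libraries, against 1.55 and 6.05 in the wildtype libraries. The part of free RNA in these values was not tested.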

How the results depend on the processing

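Bglap3 was higher in the knockout in all 74 fits over the alternatives and 7 classes, with log2 fold changes of 4.15 to 8.78. These fits reuse the libraries that chose Bglap3 and hold the same free RNA, so they are not independent support. In the Meis2 and Pbx3 class it passed with DESeq2 (7.27), without the count filter (8.44), with the replicate block (8.51) and with single libraries left out (7.58 to 8.78). In microglia it lost significance without the count filter (5.51), and single libraries left out gave 4.67 to 7.85. In oligodendrocyte precursors it lost significance with DESeq2 (5.33) and without the count filter (5.00), and single libraries left out gave 4.15 to 7.25. DESeq2 gave no adjusted p in microglia and oligodendrocytes, and Bglap3 was then called in 3 classes outside excitatory neurons, against 5. The causes were not tested.

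Within 250 kb, the replicate block called Lamtor2 in excitatory neurons (1 gene) and 2 calls elsewhere, both Gm3764, named after their values were seen; single libraries left out called 0 to 1. Within 500 kb, 1 gene was called in excitatory neurons, Bcan (log2 fold change -0.93 ± 0.14 (SE), edgeR adjusted p = 0.0082). List genes called in excitatory neurons were 0 with DESeq2, 0 without the count filter, 9 with the replicate block and 0 to 6 with single libraries left out. Elsewhere they were 8 with the replicate block, 1 with nuclei of at least 1000 UMIs, 1 with stricter doublet removal and 0 to 6 with single libraries left out. Thinning to 1000 and 2000 UMIs gave mean knockout shares of 5.34% and 9.60% in excitatory neurons, 2.31% and 4.94% in inhibitory neurons, and 3.20% and 0% in microglia, where 1 and 5 nuclei were left at 2000. Stricter doublet removal gave 5.94% in inhibitory neurons. By Spearman rho, 1 of the 5 genes most like Bglap3 was kept.

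Leaving out single libraries gave differences from inhibitory neurons of -0.40 to 1.75 for astrocytes, -4.83 to 1.46 for microglia, -4.29 to 1.95 for oligodendrocyte precursors and -1.01 to 2.03 for oligodendrocytes. Without the replicate block the differences were 0.52, -0.38, 0.12 and 0.56 for these classes and -4.04 for the Meis2 and Pbx3 class. Smg5 changed sign in astrocytes with nuclei of at least 1000 UMIs (0.011), and with single libraries left out it ran between -0.059 and 0.18 in inhibitory neurons, -0.18 and 0.11 in the Meis2 and Pbx3 class and -0.66 and 0.21 in oligodendrocyte precursors. Same-numbered libraries deviated together (r of 0.43 to 0.57 in the 7 classes), and by RNA the number coincided with sex in both genotypes, so the replicate block is also a block for sex. The labels do not pair the animals, and with 2 pairs the data do not show it. Under the block excitatory calls numbered 3099, against 819, and Lamtor2 and Gpr158 passed there (edgeR adjusted p = 0.0048 and 0.031).

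All genes called ranged over the alternatives between 279 and 3099 in excitatory neurons (819), 80 and 1124 in inhibitory neurons (187), 37 and 994 in oligodendrocytes (108), 17 and 279 in astrocytes (32), 0 and 295 in microglia (18), 0 and 24 in oligodendrocyte precursors (2) and 0 and 147 in the Meis2 and Pbx3 class (0). With 2 animals for each genotype, small effects and the low counts of Bglap, Bglap2, Paqr6 and Pmf1 were beyond the depth.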
